A study of Mus musculus with 6 samples.

Results

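The potassium channel family is described here as all probe sets of the array whose single gene symbol begins with Kcn followed by a further letter, apart from Kcnk3 and Kcnq1ot1. This gave 158 probe sets of 82 genes, out of 45101 probe sets. The members were sorted by symbol into voltage-gated (Kv) channels, inward rectifiers (Kir), 2-pore-domain (K2P) channels, SK, BK and sodium-activated channels, and auxiliary subunits. Left over were 2 transcripts named for the strand opposite Kcnmb4, Kcnmb4os1 and Kcnmb4os2, which encode no channel. Expression was measured on 6 Affymetrix arrays made from mouse cortex of the line ES691, a bacterial artificial chromosome transgenic that places a ribosomal tag under the S100a10 gene's control for translating ribosome affinity purification (TRAP). The TRAP group held 3 samples of RNA precipitated with the tagged ribosomes, and the unbound group held 3 samples of whole cortex RNA from the same line, called input in the sample titles and unbound flow-through in the series text. Both groups carried the S100a10 transgene, were backcrossed to C57BL/6 from FVB and received no treatment. The series text states that the transgene also marks some non-neuronal cells, so a TRAP value covers all marked cells. The samples are labelled as biological replicates, but no animals are named. A p-value therefore covers the spread of these samples only, and some of that spread may be technical. The title sets S100a10-expressing pyramidal cells against whole cortex, but as measured the comparison is of all cells marked by the transgene with unbound cortex RNA.

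Potassium channels set the resting potential of cells and end each action potential. Voltage-gated channels open on depolarisation and shape spikes and firing rates, inward rectifiers hold the resting potential and in astrocytes take up potassium, and 2-pore-domain channels carry the background leak. SK and BK channels open with calcium and produce the afterhyperpolarisation, and auxiliary subunits change the trafficking or gating of the pore subunits.

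Upstream sequence is shown for 4 members on which the results turn and which have 1 annotated start each. Kcnj13 and Kcnh5 were higher in TRAP RNA and Kcnj10 and Kcnc1 lower, as described further on. Each sequence is the 250 bases before the annotated start in RefSeq on GRCm38.p6, read 5′ to 3′ on the strand of the gene, with CG dinucleotides and TATAAA in capitals. Kcnj13 is at chr1:87394730-87394979 on the minus strand, Kcnh5 at chr12:75177333-75177582 on the minus strand, Kcnj10 at chr1:172340960-172341209 on the plus strand and Kcnc1 at chr7:46396218-46396467 on the plus strand.
Kcnj13: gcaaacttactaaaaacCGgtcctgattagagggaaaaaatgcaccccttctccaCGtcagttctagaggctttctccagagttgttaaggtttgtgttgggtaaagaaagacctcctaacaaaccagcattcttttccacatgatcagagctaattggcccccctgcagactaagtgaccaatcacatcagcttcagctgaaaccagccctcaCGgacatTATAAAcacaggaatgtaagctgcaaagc
Kcnh5: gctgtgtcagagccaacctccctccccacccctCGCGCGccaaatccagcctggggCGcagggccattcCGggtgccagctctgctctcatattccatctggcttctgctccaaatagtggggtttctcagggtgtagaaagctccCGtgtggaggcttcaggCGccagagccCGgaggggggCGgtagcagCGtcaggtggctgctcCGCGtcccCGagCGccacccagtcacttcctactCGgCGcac
Kcnj10: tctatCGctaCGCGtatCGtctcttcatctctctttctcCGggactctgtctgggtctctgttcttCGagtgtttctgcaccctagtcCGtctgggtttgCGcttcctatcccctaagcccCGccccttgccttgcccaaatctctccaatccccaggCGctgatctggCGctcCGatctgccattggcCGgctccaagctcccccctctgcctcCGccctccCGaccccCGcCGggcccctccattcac
Kcnc1: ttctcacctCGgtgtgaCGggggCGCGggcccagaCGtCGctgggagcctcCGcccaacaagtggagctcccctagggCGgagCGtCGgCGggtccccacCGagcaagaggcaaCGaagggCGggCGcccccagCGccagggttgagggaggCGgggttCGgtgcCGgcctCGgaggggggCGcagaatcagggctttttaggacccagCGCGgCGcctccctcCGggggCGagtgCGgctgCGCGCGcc
The Kcnj13 sequence held 3 CG dinucleotides and a TATAAA that begins 29 bases before the start. The other sequences held 16 CG in Kcnh5, 17 in Kcnj10 and 30 in Kcnc1, and no TATAAA. Of the 82 genes, 63 had an entry in the promoter table. Counting both strands and all starts of a gene, TATAAA lay in the 250 bases before a start in 3 of those 63 genes (4.76%), against 14.3% of 27025 genes. The GC box GGGCGG was found in 61.9% of the members against 35.4% of all genes. It always holds a CG, so its share is tied to the CG count. The E-box CANNTG was found in 69.8% against 69.3%, and TGACGTCA in 0 of 63 against 1.77%. The median number of CG dinucleotides, taken at the start with most of them, was 10 in the members and 6 in all genes. These matches describe the letters only. The 7 genes called higher and the 26 called lower that had an entry had medians of 16 and 13, with ranges of 3 to 28 and 0 to 35 that overlapped.

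Median intensity over all probe sets lay between 31.4 and 31.8 on the TRAP arrays and between 42.4 and 43.1 on the unbound arrays. Precision is limited by having 3 arrays a group. S100a10, the driver gene, was 5.86-fold higher in TRAP RNA (limma adjusted p = 8.3e-05). All 13 tested meningeal fibroblast markers were called higher, with a summed intensity of 38121 to 44467 on the TRAP arrays against 1229 to 1477 on the unbound arrays. Markers of oligodendrocytes were called lower in 8 of 9 tested and those of GABAergic interneurons in 9 of 11. Those of striatal projection neurons were called lower in 6 of 6 tested. Their summed intensity was 1796 to 2687 in TRAP and 7134 to 7294 in unbound RNA. Whether the unbound RNA held tissue from outside the cortex was not tested. Pyramidal neuron markers went both ways, with 3 of 9 higher and 4 lower (summed intensity 17298 to 17846 in TRAP and 18856 to 20839 in unbound RNA). In such bulk RNA, fewer cells of a type and less RNA per cell cannot be told apart. The part of these markers in the channel results was not tested, except where values are given below.

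Potassium channel genes were mostly lower in TRAP RNA. Of 82 genes, 57 reached an intensity of 50 in the mean of at least 1 group and were tested. Of these, 38 were called lower and 8 higher by limma at an adjusted p of 0.05, and 11 were not called, so 46 were called in either direction (80.7%, against 69.0% of all genes). Among the 8 was Kcnmb4os2, which encodes no channel. Lower genes made up 66.7% of the members tested, against 45.7% of the 12070 genes tested on the array, and higher genes 14.0% against 23.3%. The median log2 fold change was -0.62 over the members and -0.21 over all genes, and it was negative in 45 members (78.9%, against 63.0% of all genes). Groups did not overlap in 49 of the 57 (86.0%), against 75.5% of all genes. A difference of at least 2-fold without overlap was found in 17 members that were lower (29.8%, against 13.3% of all genes) and 5 that were higher (8.77%, against 7.29%).

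Because a gene near the level minimum can pass through the group in which it is high, the counts were also taken without that path. Of the 57, 45 passed in both groups, 9 in unbound RNA only and 3 in TRAP RNA only. Among the 45, tested among the genes that passed in both groups, 29 were lower and 5 higher (64.4% and 11.1%, against 44.7% and 21.2% of all such genes). At least 2-fold without overlap, 9 of the 45 were lower (20.0%, against 11.1% of all such genes) and 2 higher (4.44%, against 4.81%). With no level minimum, 53 of all 82 genes were lower and 12 higher (64.6% and 14.6%, against 45.9% and 26.4%). With only probe sets that hold no repeated value within a group, 21 of 29 members were lower and 2 higher (72.4% and 6.9%, against 39.2% and 19.7% of all genes). With the replicate number as a block, 41 of 57 were lower (71.9%, against 48.0% of all genes) and 8 higher (against 24.8%). Scaling moved the split. After each array was centred on its median, 27 members were lower and 12 higher (47.4% and 21.1%, against 30.4% and 37.2% of all genes), and after quantile normalisation 31 and 13 of 56 (55.4% and 23.2%, against 32.4% and 34.9%). The share of member calls in the higher direction was 17.4% as deposited, 30.8% after centring and 29.5% after quantile normalisation. Over all genes that share was 33.8%, 55.1% and 51.8%, so it rose in both and stayed lower in the members. The median over all genes was 0.06 after centring and 0.01 after quantile normalisation, while that of the members was -0.36 and -0.33.

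**Figure D1:**
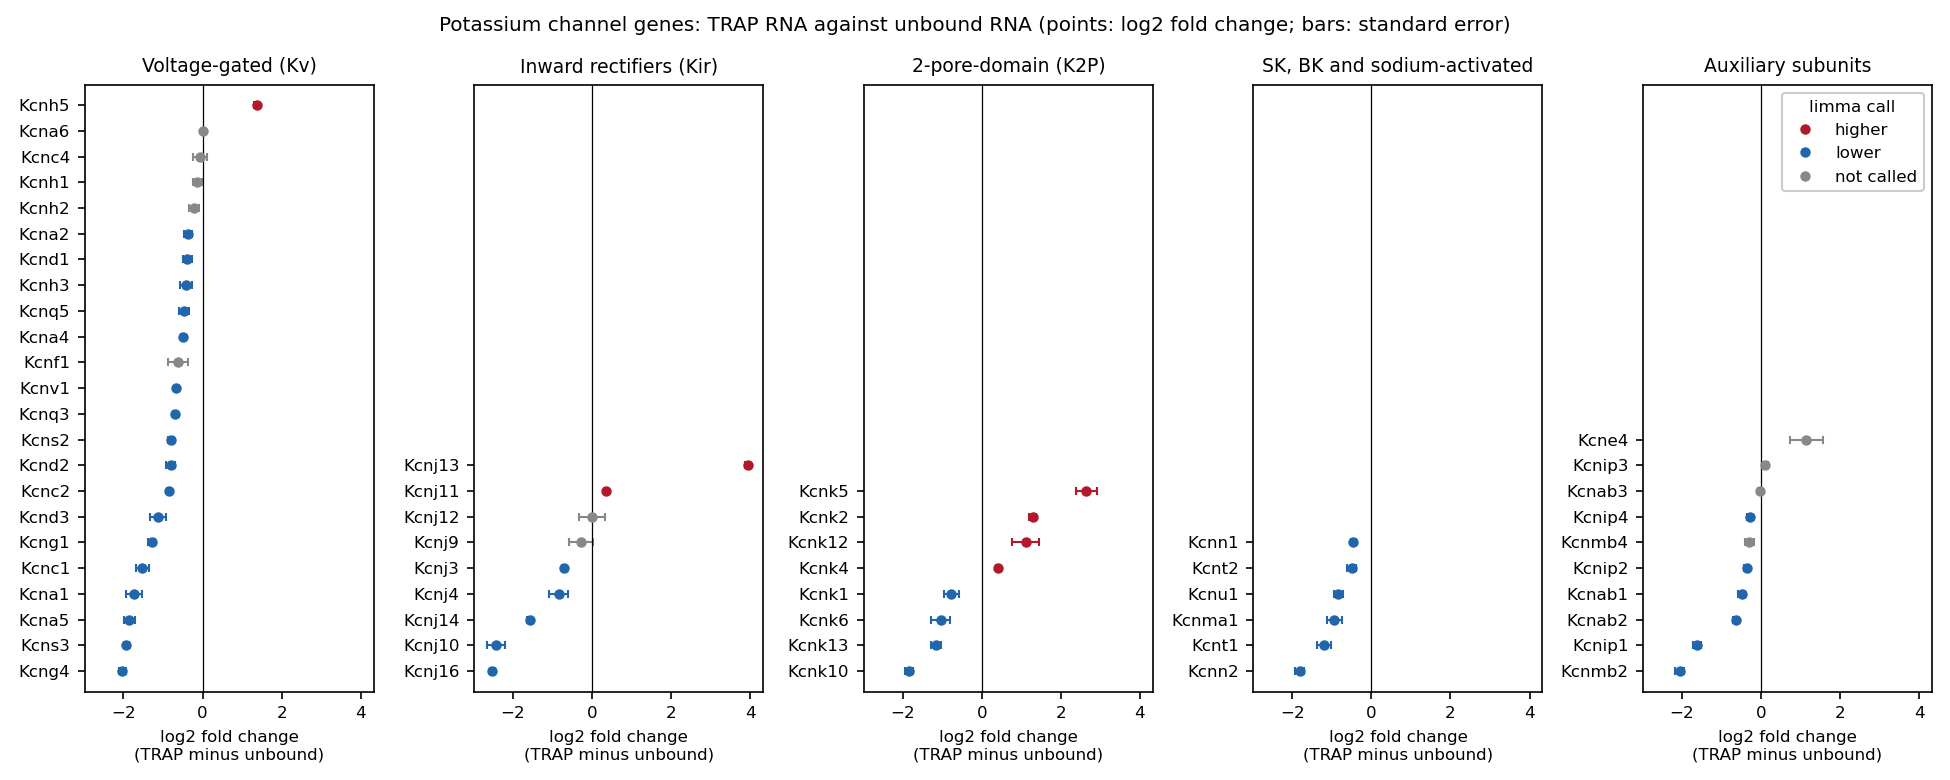
Log2 fold change (TRAP minus unbound) of the 56 tested channel and auxiliary genes, 1 panel per class, with the standard error as a bar and the limma call as the colour. Most points lie left of 0, all 6 genes of the SK, BK and sodium-activated class among them, and Kcnj13 lies farthest right at 3.93.

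Among the Kv1 (shaker) genes, which encode channels of axons and nerve terminals, 4 of 5 tested were lower, against 45.7% of all genes. Kcna1 had intensities of 1443, 2141 and 2236 in the 3 TRAP samples and 5741, 6399 and 6877 in the unbound samples. The groups were far apart, and TRAP replicate 1 was the lowest of the 6. The fold change was 3.32 (log2 -1.73, SE 0.19, limma adjusted p = 0.00090). Kcna5 measured 65.3, 91.1 and 74.5 in TRAP RNA against 266, 295 and 266 in unbound RNA, a 3.61-fold difference (adjusted p = 0.00019) without overlap. Kcna4, which encodes an A-type channel, was 1.41-fold lower. Kcna2, the partner of Kcna1 in axonal channels, measured 4561 ± 305 (SD, n = 3) against 5933 ± 681 and was 1.30-fold lower (limma adjusted p = 0.022). That call was lost after centring (log2 -0.11, adjusted p = 0.40), after quantile normalisation (log2 -0.28, adjusted p = 0.053) and on leaving out TRAP replicate 1, TRAP replicate 2 or unbound replicate 2, where the adjusted p ranged from 0.058 to 0.069. Kcna6 was not called as deposited (log2 0.02) and was called higher after both scalings (log2 0.28 and 0.27), but this rests on 1 of its probe sets, as described further on.

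Kv3 channels close fast and allow the high firing rates of fast-spiking interneurons, and Kv4 channels carry the dendritic A-type current of pyramidal cells. Kcnc1 (Kv3) measured 833, 1289 and 1014 in TRAP RNA and 2957 on each unbound array. It was 2.87-fold lower (log2 -1.52, SE 0.16, adjusted p = 0.00080). Kcnc2 (Kv3) measured 1862 ± 118 (SD, n = 3) against 3363 ± 9.55 and was 1.81-fold lower (adjusted p = 0.00011). Kcnc4 overlapped between groups, at 1780 ± 216 and 1870 ± 339 (log2 -0.06, SE 0.17). GABAergic interneuron markers moved with Kcnc1 and Kcnc2. Their summed intensity was 15514 to 19992 in TRAP RNA and 41987 to 43401 in unbound RNA, with 9 of 11 called lower and none of the 11 below the level minimum in both groups. Their part in the result was not tested.

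All 3 Kv4 genes were lower, against 45.7% of all genes. Kcnd3 measured 651, 1000 and 990 against 1668, 2021 and 1970, so every TRAP sample lay below every unbound one, and it was 2.18-fold lower (log2 -1.12, SE 0.20, adjusted p = 0.0051). Kcnd2 measured 2087, 2286 and 2767 against 3918, 4098 and 4397, a 1.75-fold difference (adjusted p = 0.0024) that was not called on the mean of its probe sets (log2 -0.52, adjusted p = 0.11). Kcnd1 was 1.30-fold lower (adjusted p = 0.029), a call lost after both scalings and without any single sample other than TRAP replicate 2.

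Kv modifier subunits do not form channels alone but join Kv2 subunits and change their gating. Of 6 tested, 5 were lower, against 45.7% of all genes, and of the 6 Kcng4 and Kcns3 passed the level minimum in unbound RNA only. Kcng4 read 17.9 on all 3 TRAP arrays and 64.6, 76.3 and 78.4 on the unbound arrays. Its TRAP values lie near background, so its 4.07-fold difference is imprecise, and it was 1.46-fold with values under 50 raised to 50. Kcns3, known from fast-spiking interneurons, read 32.7 on all 3 TRAP arrays against 127, 115 and 133 (3.81-fold, or 2.50-fold with the raised values). Kcng1 was measured above 50 in both groups, at 124, 138 and 156 against 334, 334 and 348, and was 2.44-fold lower (log2 -1.29, SE 0.09, adjusted p = 0.00018). Kcns2 and Kcnv1 were 1.73-fold and 1.59-fold lower, the latter with adjusted p = 9.6e-05, and both calls were lost on the mean of their probe sets, where Kcnv1 had a log2 fold change of -0.33. Kcnf1 measured 1481, 2228 and 2398 against 2370, 3337 and 3636. Its groups touched, since the highest TRAP value exceeded the lowest unbound value, and it was not called (log2 -0.62, SE 0.26, limma adjusted p = 0.081). Within each replicate number the TRAP sample was the lower one, and with the replicate number as a block Kcnf1 was called (limma adjusted p = 0.0018).

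Of the Kv7 genes, which encode the M-current that muscarinic receptors close, Kcnq3 and Kcnq5 were tested. Kcnq3 measured 2884, 2940 and 3041 against 4644, 4742 and 5043 and was 1.63-fold lower (log2 -0.70, SE 0.04, adjusted p = 0.00012). On the mean of its probe sets the log2 fold change was -0.16 and was not called (adjusted p = 0.096). Kcnq5 was 1.39-fold lower (adjusted p = 0.027), a call lost after both scalings and without any single sample other than TRAP replicate 3.

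Of 4 tested ether-a-go-go genes, 1 was higher and 1 lower, against 23.3% and 45.7% of all genes. Kcnh5 measured 201, 178 and 203 in TRAP RNA and 76.8, 74.0 and 74.0 in unbound RNA. The groups were apart on every array, and the gene was 2.59-fold higher (log2 1.37, SE 0.06, limma adjusted p = 3.8e-05). Its relative Kcnh1 overlapped between groups at 619 ± 83.4 (SD, n = 3) and 673 ± 57.8 and had a log2 fold change of -0.13 (SE 0.13), which turned to 0.14 after centring and 0.10 after quantile normalisation. Its other probe set was called higher, at 257 ± 19.5 against 211 ± 10.2 (1.22-fold, limma adjusted p = 0.017). Kcnh2, the gene of the hERG channel, was not called (log2 -0.22, adjusted p = 0.17). Kcnh3 was 1.34-fold lower at an adjusted p within rounding of the threshold (0.04999), and lost that call after both scalings and without any single sample. Other kept probe sets of Kcnh3 were called lower as deposited, by 1.39-fold and 1.48-fold (limma adjusted p = 0.00022 and 0.045).

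Of 9 inward rectifiers tested, 5 were lower and 2 higher, against 45.7% and 23.3% of all genes. Of the 9, 5 passed the level minimum in both groups. Kcnj4, Kcnj14 and Kcnj16 passed in unbound RNA only and Kcnj13 in TRAP RNA only, so the filter alone set the direction of these. Kcnj13, which encodes a rectifier of the choroid plexus and retinal pigment epithelium, measured 699, 823 and 767 in TRAP RNA and 49.8, 50.1 and 50.1 in unbound RNA. Every TRAP sample lay far above every unbound sample, whose values were at the level minimum. The difference was 15.2-fold (log2 3.93, SE 0.07, limma adjusted p = 2.1e-06). It was also 15.2-fold with values under 50 raised to 50, but that setting could hardly change values already at that level. Of 8 choroid plexus markers, 4 were tested, of which Kl and Calml4 were called higher and Clic6 lower, and Folr1, Otx2, Aqp1 and Sostdc1 were under 50 in both groups. The summed intensity of the 4 tested was 258 to 391 in TRAP RNA and 204 to 3014 in unbound RNA, where Ttr measured 1040 ± 1599 (SD, n = 3) against 82.0 ± 80.1. The part of choroid plexus RNA in the Kcnj13 value was not tested. The 13 meningeal fibroblast markers tested moved in the same direction as Kcnj13, and their part in its value was not tested.

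Both glial rectifiers, Kcnj10 and Kcnj16, were lower. Kcnj10, the main potassium uptake channel of astrocytes, measured 66.0, 110 and 85.1 in TRAP RNA against 381, 500 and 500. The groups were apart, and it was 5.36-fold lower (log2 -2.42, SE 0.22, adjusted p = 0.00046). Kcnj16, which joins Kcnj10 in heteromeric channels, read 16.9 on all 3 TRAP arrays against 93.7, 106 and 90.9 (5.74-fold, or 1.93-fold with the raised values, adjusted p = 7.0e-06). Astrocyte markers went lower in 7 of 11 and higher in 2, with a summed intensity of 18155 to 22720 in TRAP RNA and 29747 to 40351 in unbound RNA. Their part in the Kcnj10 and Kcnj16 values was not tested. Kcnj14 measured 16.8, 17.9 and 17.9 against 55.6, 51.8 and 49.7 and was 2.99-fold lower (adjusted p = 1.6e-05), but only 1.05-fold and not called with the raised values (adjusted p = 0.23). Kcnj4, also close to the level minimum, was 1.80-fold lower as deposited and 1.07-fold with the raised values. It lost its call after centring and without any 1 of the unbound replicates.

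Kcnj3, a subunit of the G protein-gated channels opened by inhibitory receptors, measured 2387, 2647 and 2628 against 4116, 4147 and 4221 and was 1.63-fold lower (adjusted p = 0.00018). Kcnj9, another such subunit, measured 961, 906 and 553 against 1166, 1051 and 691. Replicate 3 was the lowest of both groups, and the groups overlapped (log2 -0.27, SE 0.31, limma adjusted p = 0.46). With the replicate number as a block the same difference was called (limma adjusted p = 0.0094), but after centring it was -0.01. The other kept probe set of Kcnj9 was called lower as deposited (1.35-fold, limma adjusted p = 0.048). Kcnj11, the pore of the ATP-sensitive channel, read 777 on all 3 TRAP arrays against 602, 602 and 642 and was 1.26-fold higher (log2 0.34, SE 0.04, adjusted p = 0.00082). Abcc8, the sulfonylurea receptor subunit that partners it, was 1.20-fold lower (adjusted p = 0.043), a call lost after centring (adjusted p = 0.98). The vascular form of that channel, made by Kcnj8 and Abcc9, was under 50 in both groups. Kcnj8 measured 8.67 in TRAP and 14.9 in unbound RNA, and Abcc9 5.17 and 48.2. Of 8 tested pericyte and smooth muscle markers, 6 were called higher, 1 lower and 1 was not called. The lower one was Rgs5, at 209 ± 1.13 (SD, n = 3) in TRAP RNA against 973 ± 10.3, a 4.66-fold difference. The part of these markers in the channel values was not tested. Kcnj12 overlapped between groups and was not called (log2 0.00, SE 0.33), but without unbound replicate 1 it was called lower (log2 -0.37, limma adjusted p = 0.0098).

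**Figure D2:**
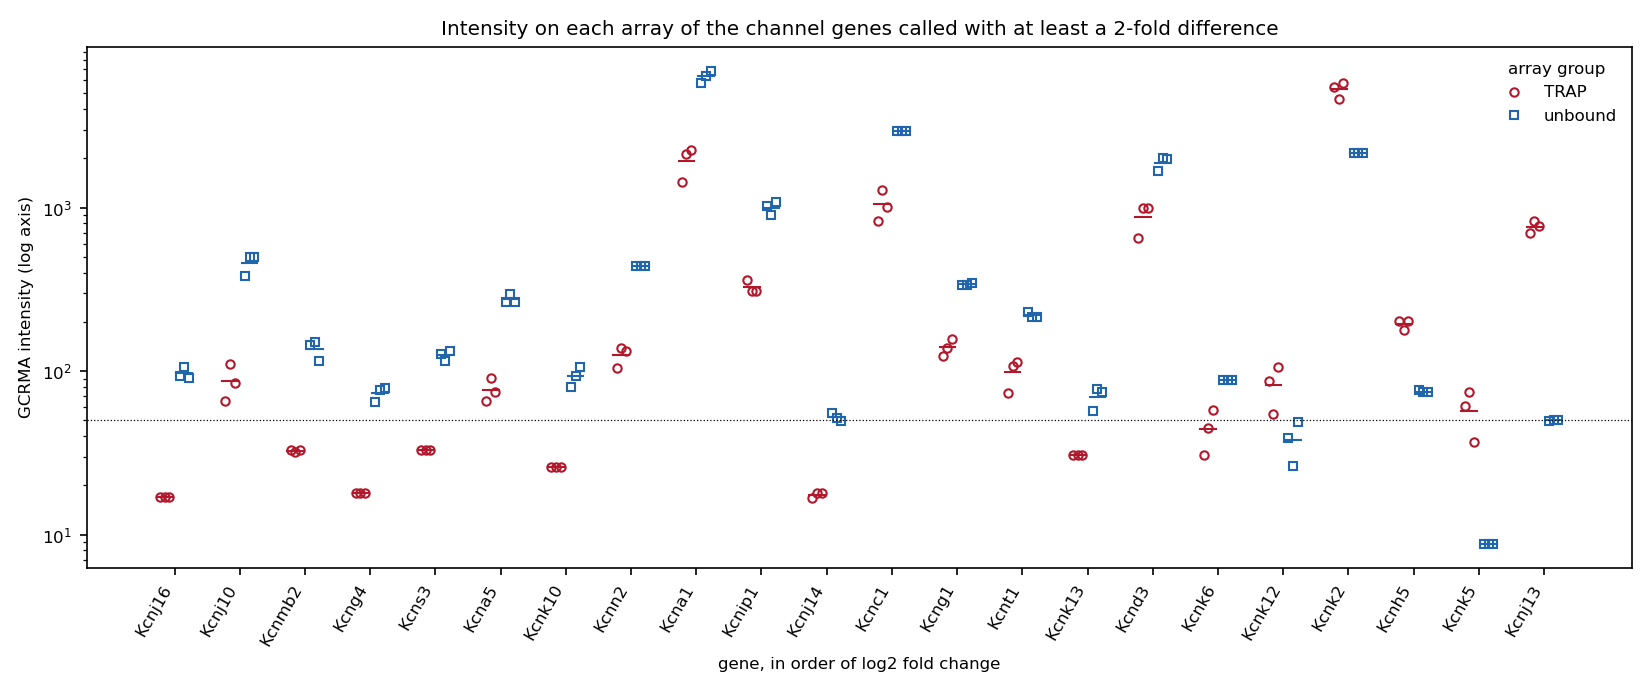
GCRMA intensity (log axis) on each of the 3 TRAP arrays (circles) and 3 unbound arrays (squares) for the 22 genes called with at least a 2-fold difference and no overlap, with the group mean as a line and the level minimum of 50 dotted. Kcnk2 and Kcnj13 lie well above the dotted line in TRAP RNA, while Kcnj16, Kcng4 and Kcnj14 lie below it there.

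Of 8 tested 2-pore-domain channels, 4 were higher and 4 lower, against 23.3% and 45.7% of all genes. Only 3 of the 8 passed the level minimum in both groups, Kcnk2 and Kcnk4, which were higher, and Kcnk1, which was lower. Of the others, 2 passed in TRAP RNA only and 3 in unbound RNA only. The filter alone set the direction of these, so the count of 8 is no measure of the class. Kcnk2, a leak channel gated by stretch, lipids and temperature (TREK), measured 5495, 4630 and 5768 in TRAP RNA and 2159 on all 3 unbound arrays. Its groups did not overlap, and it was 2.44-fold higher (log2 1.29, SE 0.09, limma adjusted p = 0.00016). Kcnk4, which encodes the related TRAAK channel, measured 115, 115 and 117 against 87.1, 87.1 and 88.3, a 1.32-fold difference (log2 0.40, SE 0.03, adjusted p = 0.00014). Kcnk10, the third gene of that group, went the other way. It read 25.9 on all 3 TRAP arrays against 80.4, 93.4 and 105 and was 3.58-fold lower, or 1.85-fold with values under 50 raised to 50.

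Kcnk5, an alkaline-activated channel best known from epithelia, measured 60.9, 74.5 and 36.6 against 8.77 on all 3 unbound arrays. It was 6.27-fold higher (log2 2.65, SE 0.27, adjusted p = 0.00068), but the unbound values lie near background and it was 1.22-fold and not called with the raised values (adjusted p = 0.15). Kcnk12 measured 86.7, 54.4 and 106 against 39.0, 26.2 and 48.6 and was 2.16-fold higher (log2 1.11, SE 0.34, adjusted p = 0.035). On leaving out TRAP replicate 1, TRAP replicate 3, unbound replicate 1 or unbound replicate 2 the call was lost, with adjusted p from 0.083 to 0.10. It was also lost when values under 50 were raised to 50 (log2 0.67, adjusted p = 0.070).

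Of the lower K2P genes, Kcnk1 was the one above the level minimum in both groups. It measured 1304, 1649 and 2018 against 2392, 2969 and 3001 and was 1.70-fold lower (log2 -0.77, SE 0.19, adjusted p = 0.016), a call lost after centring (adjusted p = 0.056), on the mean of its probe sets and on leaving out TRAP replicate 2, unbound replicate 2 or unbound replicate 3. Kcnk6 measured 30.5, 45.0 and 57.7 against 88.3 on each unbound array (2.06-fold, adjusted p = 0.013). Kcnk13, the resting channel of microglia, read 30.8 on all 3 TRAP arrays against 56.9, 77.3 and 74.1 (2.23-fold, or 1.38-fold with the raised values). Microglial markers were lower in 8 of 9 tested, with a summed intensity of 546 to 794 in TRAP RNA and 1694 to 2246 in unbound RNA, and their part was not tested.

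All 6 tested genes of the SK, BK and sodium-activated class were lower, against 45.7% of all genes. Their groups were apart in 6 of 6, against 75.5% of all genes. Their median log2 fold change was -0.88. Kcnn2, a small-conductance channel behind the medium afterhyperpolarisation, measured 105, 138 and 133 in TRAP RNA and 437 on all 3 unbound arrays. It was 3.50-fold lower (log2 -1.81, SE 0.11, adjusted p = 0.00011). Kcnt1, a sodium-activated channel, measured 73.7, 108 and 113 against 230, 215 and 214 and was 2.28-fold lower (adjusted p = 0.0027). Its relative Kcnt2 measured 1475, 1631 and 1903 against 2618, 2165 and 2274, a 1.41-fold difference (adjusted p = 0.016) that was not called after centring (adjusted p = 0.13) or without TRAP replicate 2 (adjusted p = 0.054). Kcnma1, the pore of the BK channel, measured 491, 681 and 681 against 1164, 1354 and 1004 and was 1.91-fold lower (log2 -0.93, SE 0.18, adjusted p = 0.0069). Kcnu1, placed in this class by its symbol, encodes a channel known from sperm. It was 1.78-fold lower (adjusted p = 0.0014). Kcnn1 was 1.37-fold lower and lost its call after both scalings.

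Auxiliary subunits gave 6 lower (against 45.7% of all genes), 0 higher (against 23.3%) and 4 not called among 10 tested by limma, with 1 higher (Kcne4) at an unadjusted p under 0.05. Of the 10, Kcnmb2 passed the level minimum in unbound RNA only, so the filter alone set its direction. Kcnip1, a calcium sensor that binds Kv4 channels, measured 359, 310 and 310 against 1018, 897 and 1078. It was 3.06-fold lower (log2 -1.61, SE 0.10, adjusted p = 0.00010) without overlap. The other Kv4 sensors differed less, with Kcnip2 and Kcnip4 1.28-fold and 1.22-fold lower and Kcnip3 not called (log2 0.11). Both lower calls of these were lost after centring, and Kcnip3 was then called higher (log2 0.38). The other probe set of Kcnip3 was called higher as deposited (1.24-fold, limma adjusted p = 0.0031). Kcnmb2, an inactivating BK subunit, measured 32.9, 32.2 and 32.9 against 144, 151 and 115 and was 4.16-fold lower (adjusted p = 6.7e-05), which became 2.72-fold with the raised values. Kcnmb4, the neuronal BK subunit, measured 2083 ± 244 (SD, n = 3) against 2539 ± 184 and was not called (log2 -0.29, limma adjusted p = 0.054). It was called with the replicate number as a block (limma adjusted p = 0.018) and without TRAP replicate 3 (limma adjusted p = 0.022).

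Of the Kv beta subunits, which bind Kv1 channels and bring them to axons, Kcnab1 and Kcnab2 were lower and Kcnab3 was not called as deposited (log2 -0.02) and was called higher after both scalings (log2 0.25 in each). Kcnab2 measured 969, 1072 and 925 against 1538 on all 3 unbound arrays (1.56-fold, adjusted p = 0.00050), and Kcnab1 was 1.40-fold lower (adjusted p = 0.0054), a call lost after centring (adjusted p = 0.056). Kcne4, an inhibitory single-span subunit, measured 233, 82.1 and 98.4 against 55.6 on each unbound array. TRAP replicate 1 stood apart, and the gene was not called (log2 1.15, SE 0.41, limma adjusted p = 0.055). Without that replicate the log2 fold change was 0.69 and was called (limma adjusted p = 0.0047), and it was also called without TRAP replicate 2 and after centring. Kcnmb4os2, a transcript named for the strand opposite Kcnmb4 that encodes no channel, was 1.53-fold higher (adjusted p = 0.00029). Whether the probes for Kcnmb4 and Kcnmb4os2 take signal from each other's transcripts was not tested.

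The 25 members under 50 in both groups were Kcna3, Kcna7, Kcne1, Kcne1l, Kcne2, Kcne3, Kcng2, Kcnh7, Kcnh8, Kcnj1, Kcnj15, Kcnj2, Kcnj5, Kcnj6, Kcnj8, Kcnk15, Kcnk16, Kcnk7, Kcnmb1, Kcnmb4os1, Kcnn3, Kcnn4, Kcnq1, Kcns1 and Kcnv2. Their group means ranged up to 48.5 in TRAP and 47.5 in unbound RNA, both in Kcns1. Kv2 genes had no probe set with a single symbol and were not analysed here.

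Different probe sets of a gene bind different parts of its transcripts, so they were compared. Of the 158 probe sets, 96 reached the level minimum in a group mean. Tested one by one among 22591 probe sets, 61 were lower and 12 higher (63.5% and 12.5%, against 47.7% and 20.6% of all probe sets). Among 29 genes with several such probe sets, all probe sets were called the same way in 12 and in opposite directions in 2. The same count was not taken over all genes, so these numbers are no measure of the family. Of the 12, Kcnj16 and Kcnmb2 had probe sets that passed in unbound RNA only, so the filter set their direction. The 12 include Kcna1 (3.32-fold, 2.92-fold and 2.20-fold lower), Kcnc1 (2.87-fold, 2.57-fold and 1.80-fold lower), Kcnt1 (2.34-fold, 2.28-fold and 2.08-fold lower), Kcnip1 (3.06-fold and 1.91-fold lower) and Kcnj16 (5.74-fold and 7.45-fold lower, both imprecise since its TRAP values of 16.9 and 12.1 lie near background). The 2 genes with opposite calls were Kcnq3, whose other probe set was higher at 195 ± 26.1 against 150 ± 11.6 (SD, n = 3; limma adjusted p = 0.034), and Kcnab2, whose other probe set was 1.10-fold higher (limma adjusted p = 0.019).

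Beside Kcnq3, the log2 fold changes of kept probe sets of 1 gene lay more than 1 apart in Kcna6, Kcnmb2 and Kcnma1. The second Kcna6 probe set measured 89.6 ± 0 against 253 ± 12.1 (SD, n = 3) and was 2.82-fold lower (limma adjusted p = 6.9e-06), while the one used for the gene did not differ by more than 1.01-fold. The Kcnmb2 probe sets were 4.16-fold and 10.4-fold lower, with TRAP values of 32.7 and 10.1 near background. In Kcnma1, 1 of the 4 probe sets above the level minimum measured 10.2 ± 0.435, near background, against 54.6 ± 9.07 and was 5.29-fold lower, while the other 3 were 1.91-fold, 1.52-fold and 1.36-fold lower, of which the 1.52-fold difference was not called (limma adjusted p = 0.055).

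**Figure D3:**
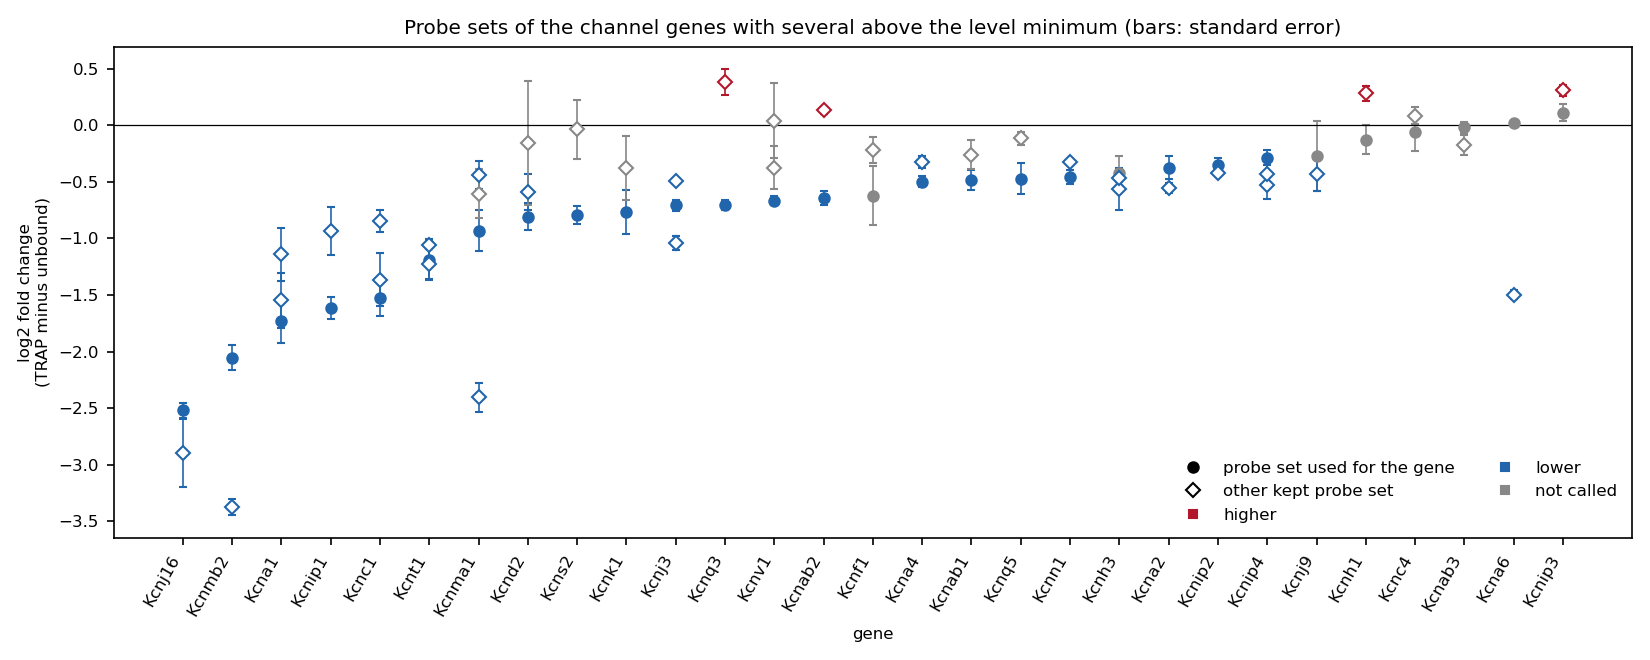
Log2 fold change (TRAP minus unbound) and standard error of every probe set above the level minimum in the 29 genes that had several, with a filled circle for the probe set used for the gene, an open diamond for the others, and the limma call as the colour. The second Kcna6 diamond lies at -1.50, far below the circle at 0.02, and Kcnq3 and Kcnab2 have symbols on both sides of 0.

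Genes whose products bind or anchor potassium channels were listed as partners. Of 33 listed, 25 were tested, of which 20 were lower (80.0%, against 45.7% of all genes), 0 higher (against 23.3%) and 5 not called by limma, with a median log2 fold change of -0.53. Ank2, an ankyrin of the membrane skeleton, was 2.56-fold lower, at 606 ± 121 (SD, n = 3) against 1559 ± 352 (adjusted p = 0.0033). Dlg2, the scaffold that clusters Kv1 channels, was 2.13-fold lower, at 849 ± 24.5 against 1810 ± 111 (adjusted p = 5.8e-05). Gng2, a G protein subunit of the kind that opens Kcnj3 channels, was 2.07-fold and Cntn2, an axonal contactin, 2.03-fold lower. Abcc9, Lrrc26 and Lrrc52 were under 50 in both groups, and the other listed partners were not analysed here. At an unadjusted p under 0.05, 0 partners were higher as well. After centring 1 was called higher and 12 lower, against 37.2% and 30.4% of all genes.

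Of 11 potassium pump and cotransporter genes, 6 were tested, with a median of -0.24. Slc12a2, the sodium-potassium-chloride cotransporter, was 2.35-fold lower, at 815 ± 77.9 against 1906 ± 47.9 (SD, n = 3; adjusted p = 0.00011). Slc12a4 and Slc12a5, potassium-chloride cotransporters, were 1.68-fold and 1.26-fold lower, and both calls were lost after centring (log2 -0.49, adjusted p = 0.0503 for Slc12a4 and log2 -0.07, adjusted p = 0.50 for Slc12a5). Atp1b3, a subunit of the sodium pump, was 1.39-fold higher (adjusted p = 0.0078). Over both lists 23 genes were lower and 1 higher as deposited (23 of 31 tested, or 74.2%, against 45.7% of all genes), and 13 and 2 after centring (41.9% and 6.45%, against 30.4% and 37.2% of all genes).

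**Figure D4:**
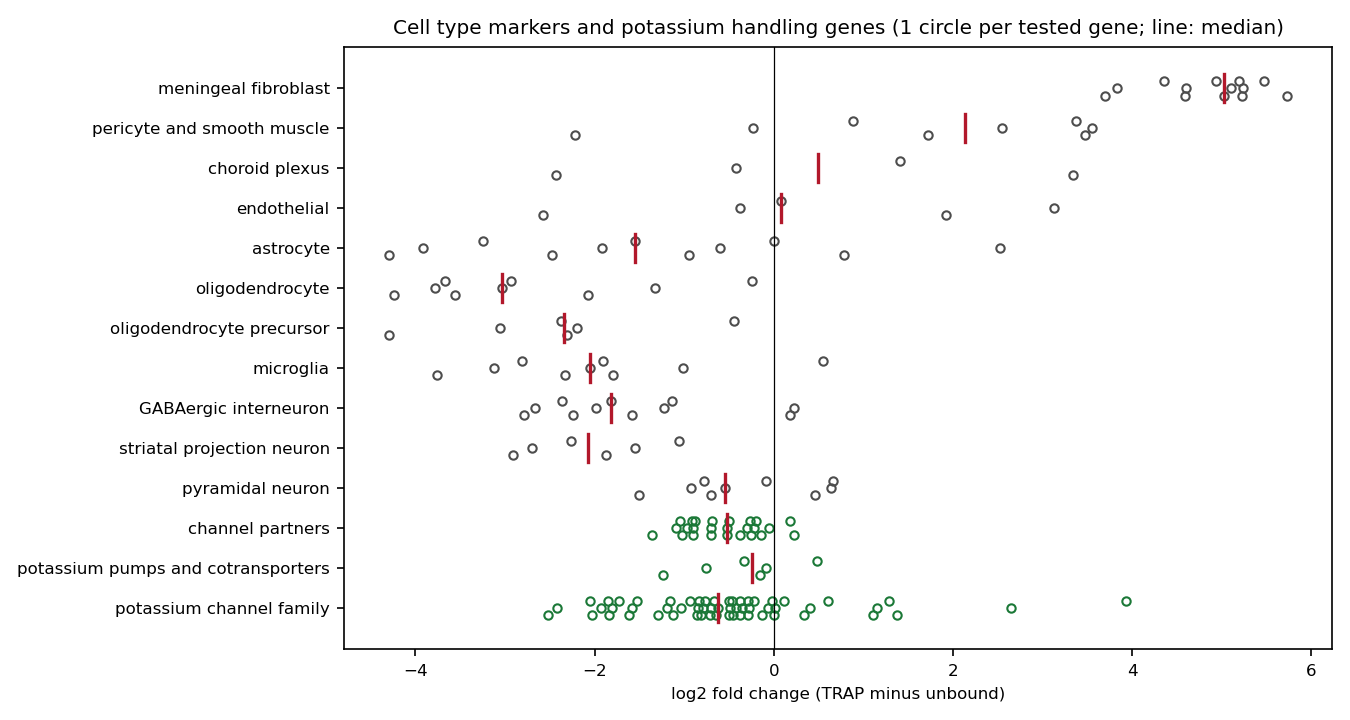
Log2 fold change (TRAP minus unbound) of each tested gene of the cell type marker lists (grey circles), the 2 potassium handling lists and the potassium channel family (green circles), with the list median as a red line. The meningeal list has its median at 5.03 and the oligodendrocyte list at -3.03. All tested genes of the channel family lie between these medians, from -2.52 to 3.93, with a median of -0.62.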

How the data were processed

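Expression in mouse cortex was measured on 3 TRAP and 3 unbound Affymetrix arrays, labelled by 2 rounds of amplification from 15 ng of RNA, per the labels' protocols. The deposited values are linear intensities that the authors normalised with GCRMA, per the submitters' processing notes and the series text. No source used here states whether both groups were normalised together. Identical values on a pair of arrays of 1 group were held by 17.9% to 21.6% of the kept probe sets, so an SD of 0 can occur. Of the tested members, 35 held a repeated value in at least 1 group and 22 held none. Where values repeat, the SD, the SE and the p-value may understate the spread between samples. Precision is limited by having 3 arrays a group.

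Of 45101 probe sets, 34958 had 1 gene symbol, 932 several and 9211 none. Each gene was represented by whichever of its probe sets had the highest mean intensity, and was tested where a group mean reached 50. Log2 intensities of 12070 genes were compared by the lmFit and eBayes functions of limma 3.58.1 under R 4.3.3 (Benjamini-Hochberg adjustment over all genes tested, threshold 0.05), and the script was tested on simulated data. All adjusted p-values are from limma. With 3 arrays a group an exact permutation test of a single gene cannot go below p = 0.1. A replicate number may pair a TRAP with an unbound sample. Deviations from the group means correlated at 0.50, 0.46 and 0.37 for equal numbers and at -0.37 to -0.05 for unequal ones. Such deviations sum to 0 within a group, so the negative values are no separate evidence of pairing. The main fit left the replicate number out, and the block was run as an alternative. The named members were those called with at least a 2-fold difference and no overlap, the brightest tested gene of each subfamily, the called gene of lowest adjusted p under 2-fold in each class, and 7 genes known from other cell types. Of each pathway list, up to 4 called genes a direction with the largest folds were named. Other members, and Abcc8, are given briefly and were chosen after their values were seen. The alternatives changed the level minimum, scaling, pseudocount, probe sets, variance model, replicate block and arrays included. The members and gene lists were chosen with earlier results of these data known.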

Additional observations from a re-analysis of the deposited data

How the results depend on the processing

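Over the alternatives run, the count of potassium channel genes called higher moved from 8 to 5 with both group means at 50 or more, 13 after quantile normalisation and 2 with only probe sets without repeated values, where the lower count moved from 38 to 21. These filters test fewer genes, and the cause of the change with quantile normalisation was not tested. Leaving out 1 array gave 7 to 8 higher and 32 to 37 lower. The shares of all genes on leaving out 1 array are not given here, so these counts do not separate the family from the whole array. Without unbound replicate 2, 7 calls were lost, and in no alternative did a called member turn its sign. With the replicate number as a block 41 members were lower and 8 higher, and apart from Kcnf1, Kcnj9 and Kcnmb4 no member's call changed. Of the partner and potassium transport genes, 1 was higher as deposited, 2 with no level minimum, after centring, after quantile normalisation and with the replicate block, and 0 without repeated values. The lower count of 23 became 13 after centring, 15 after quantile normalisation and 15 without repeated values. Of all genes, 30.4%, 32.4% and 39.2% were lower in these settings, against 45.7% as deposited. Leaving out 1 array gave 1 to 2 higher and 18 to 21 lower, again without the shares of all genes. Kcnh1 changed sign from -0.13 to 0.14 after centring, 0.10 after quantile normalisation and 0.077 on the mean of its probe sets, and was not called in these. Signal near background limits the folds of members under 50 in 1 group.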
